A study of Mus musculus with 36 samples.

Results

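Intron windows of mouse genes were examined in an eCLIP data set for D1PAS1, a DEAD-box RNA helicase of male germ cells. A window is a stretch of up to 50 nt of a gene in which cross-link events were counted, and the windows kept were those annotated as intron, in features with an Ensembl mouse gene ID, with a window number divisible by 3. Consecutive windows overlap, and windows chosen this way do not. They were 2083534 windows of 7575993 in the 6 files, in 175958 introns of 28904 genes, beside 411017 exon windows chosen the same way. No measured value entered the choice, except that each file lists only windows with at least 1 event.

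The material was testis, with male germ cell as the labelled cell type, from mice whose genotype is labelled KI (knock-in). The allele and the age are not given in the labels. UV light cross-links protein to RNA, and 3 precipitates of D1PAS1 (IP) were compared with 3 size-matched inputs, which all carry the same genotype and the same cross-linking. RNA-seq of testes with and without D1Pas1 (wild type and knockout) at postnatal days 18 and 28, 3 libraries per genotype and age, gave a second readout of the host genes. The labels do not say that libraries came from separate animals, so p-values measure the spread between these libraries, which may be technical.

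In eCLIP, reverse transcription tends to stop at the base where protein was cross-linked, so that the ends of the cDNAs mark sites of contact. Introns are present in pre-mRNA and are removed by splicing, mostly while the RNA is still on chromatin, so cross-links in introns come from unspliced or excised RNA. The input goes through the same size selection without enrichment for the protein. It thus reflects cross-links to other proteins of that size as well as the amount of each RNA. DEAD-box helicases unwind short RNA duplexes, and members of this family act in splicing, export, translation and the handling of RNA-DNA hybrids.

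The libraries differed in depth. The inputs held 262049, 2741420 and 3665538 cross-links in all windows with a number divisible by 3, and the IPs held 144662, 138887 and 102257. Most intron windows listed in an IP library held a single event, 92.1%, 92.1% and 91.2% of them in IP 1 to 3, against 84.8%, 75.2% and 70.3% in input 1 to 3. The list of germ cell piRNA pathway genes had summed intron levels of 906 to 1232 CPM (cross-links scaled to the total of the library) in the IPs and 1042 to 1305 in the inputs. Sertoli cell markers, which mark the somatic cells of the tubule, had 616 to 662 in the IPs and 645 to 696 in the inputs. Introns of both lists were thus present in every library. In the RNA-seq, the targeted gene D1Pas1 had 55.3, 74.7 and 123.8 CPM in wild type and 15.8, 24.5 and 22.0 in knockout at day 18, and 248.1, 202.6 and 161.0 against 38.1, 48.8 and 50.5 at day 28.

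Introns held most of the cross-links within genes in every library. The intron share was 81.0%, 79.9% and 82.8% in the inputs and 76.5%, 80.9% and 74.7% in the IPs. The IP mean was 77.4% ± 3.19 (SD, n = 3) and the input mean 81.2% ± 1.48 (SD, n = 3), a difference of -3.90 percentage points (two-sided exact permutation test over libraries, p = 0.2). The groups overlapped, because IP 2 lay above input 2. With 3 libraries against 3 this exact test cannot go below p = 0.1.

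Intron number is counted from the 5′ end of the gene, and first introns are commonly the longest. Intron 1 held 23.3%, 22.7% and 23.3% of intron cross-links in the IPs and 21.4%, 21.9% and 22.3% in the inputs. Every IP lay above every input, by 1.28 percentage points on average, which is the most that this design can separate (exact permutation p = 0.1, Benjamini-Hochberg adjusted over 6 classes of intron number 0.3). Introns 6 to 10 lay lower in every IP, at 17.7% ± 0.111 (SD, n = 3) against 18.4% ± 0.463 (SD, n = 3), with the same exact p of 0.1 and adjusted p of 0.3. Counting distinct positions, the differences shrank to 0.676 points for intron 1 and -0.356 for introns 6 to 10, and counting each listed window once, to 0.519 and -0.291. Without input 1 that of introns 6 to 10 was -0.440. The other classes overlapped between the groups. Introns 2 took 14.9% and 15.2% of the cross-links in the mean IP and input, introns 4 to 5 took 14.0% in both, and introns above 10 took 19.2% and 19.4%. The profile along the gene therefore differed between IP and input by at most 1.28 percentage points in a class.

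**Figure D1:**
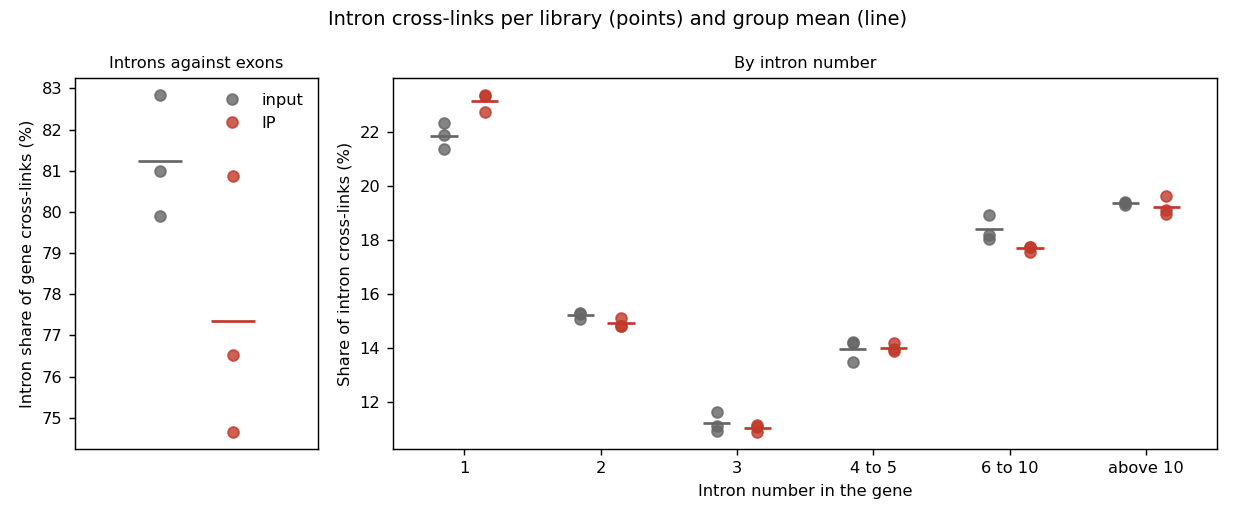
Left, share of gene cross-links that lie in introns, in percent; right, share of intron cross-links by intron number, in percent. Points are the 3 inputs (grey) and 3 IPs (red), and lines are group means; the axes do not start at 0. Intron 1 holds 22.7% to 23.3% in the IPs and 21.4% to 22.3% in the inputs.

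Summed over all introns of a gene, cross-links rose in the IP for some genes and fell for others. Of 28904 genes with an intron window, 3916 passed the low-count filter, and the others are not described by the test. Of these, 359 were higher and 415 lower in IP than in input (edgeR quasi-likelihood test with Benjamini-Hochberg adjustment over all gene introns and gene exons, adjusted p under 0.05). That is 19.8% of the tested intron sums, where 25% of all rows tested, exons included, were called. With library totals in place of TMM scaling, 292 were higher and 604 lower. Without IP 1 the calls numbered 430 in all, without IP 3 514 and without input 2 449. The median log2 fold change of the intron sums was -0.06, with quartiles of -0.51 and 0.32. Depth on few positions marks many of the calls: a single window held a median of 42.3% of the IP cross-links in genes that rose and 10.5% in genes not called. In genes that fell, a single window held a median of 45.3% of the input cross-links, against 10.9% in genes not called.

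When each distinct position was counted once, 2822 intron sums could be tested, and 69 were higher and 14 lower (edgeR, adjusted p under 0.05), where 7.11% of all rows were called, 6.61% higher and 0.496% lower. Of the 359 genes that rose by total count, 222 could be tested this way and 64 were called higher. Of the 415 that fell, 210 could be tested and 13 were called lower. The count of calls in both directions thus dropped from 774 to 83 with the way of counting.

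**Figure D2:**
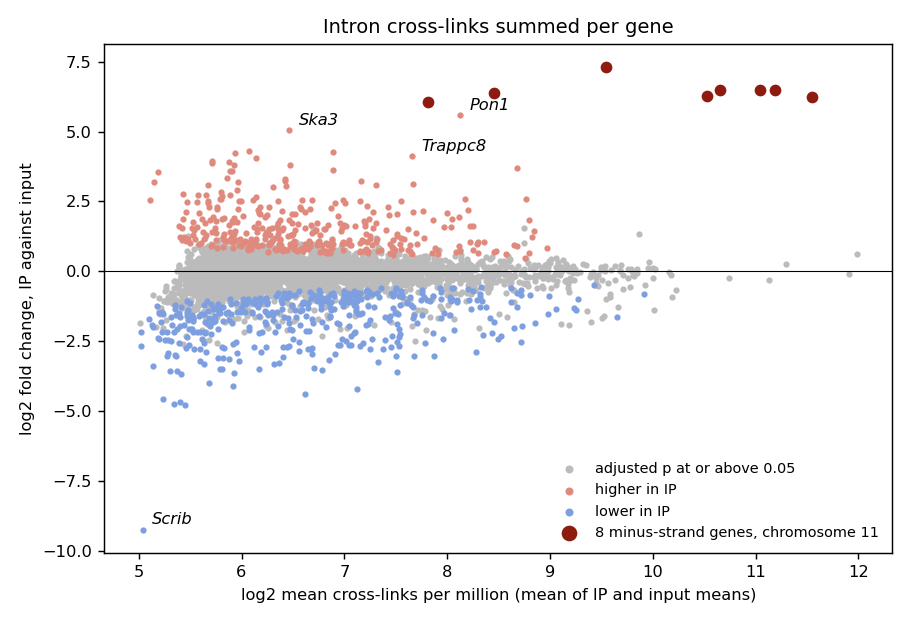
Log2 fold change of IP against input for the intron cross-links of each of the 3916 genes tested, against log2 of the mean level in CPM. Each point is a gene, coloured by the edgeR call; the 8 large points are neighbouring minus-strand genes of chromosome 11, with log2 fold changes from 6.05 to 7.31.

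The largest rises came from neighbouring genes on the minus strand of chromosome 11. Within 857 kb of chr11:109139291-109996274 (GRCm38), all 8 genes with intron windows that could be placed on the minus strand were tested and all 8 rose. For 3 short models inside (1700096J18Rik, Gm11683 and 1700023C21Rik) the strand is not known and none was tested. Their log2 fold changes ran from 6.05 to 7.31, with standard errors of 0.48 to 0.63 and edgeR adjusted p from 0.000136 to 0.000321. The region was picked after the values were seen. Strand was taken from the order of windows and intron numbers, which matched the RefSeq strand for 99.99% of 17214 genes.

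In order along the chromosome the genes were E030025P04Rik, Rgs9, Gm11696, Slc16a6, Wipi1, Fam20a, 1700012B07Rik and Abca8b, and none overlaps the next. Rgs9 (chr11:109225348-109298181) encodes a regulator that speeds the shut-off of G proteins in photoreceptors and striatal neurons. Its introns held 1098, 366 and 765 cross-links in IP 1 to 3 and 17, 295 and 287 in input 1 to 3. At the depth of each library that is 7590, 2635 and 7481 CPM against 64.9, 107.6 and 78.3, so that the lowest IP stood far above the highest input (log2 fold change 6.24, SE 0.52, edgeR adjusted p = 0.000169).

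Slc16a6 (chr11:109450855-109473598), of the monocarboxylate transporter family, had 1770, 720 and 1966 CPM in the IPs and 3.82, 13.1 and 9.28 in the inputs (log2 fold change 7.31, SE 0.54). Wipi1 (chr11:109573521-109611389), a phosphoinositide-binding protein of autophagy, had 3705, 1310 and 3706 against 34.3, 46.0 and 41.5 CPM (6.26, SE 0.49). In these genes, as in Rgs9, IP 2 was the lowest of the IPs and lay above every input. Fam20a (chr11:109669746-109723163), a pseudokinase that partners the secretory kinase FAM20C, had 5641, 2318 and 5828 against 61.1, 63.1 and 45.8 CPM (6.49, SE 0.48). Abca8b (chr11:109932206-109996274), an ABC lipid transporter, had 5164, 1886 and 5496 against 34.3, 69.3 and 43.9 CPM (6.48, SE 0.54). The other 3 are gene models without an assigned name: E030025P04Rik rose by 6.05, Gm11696 by 6.39 and 1700012B07Rik by 6.49 on the log2 scale.

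**Figure D3:**
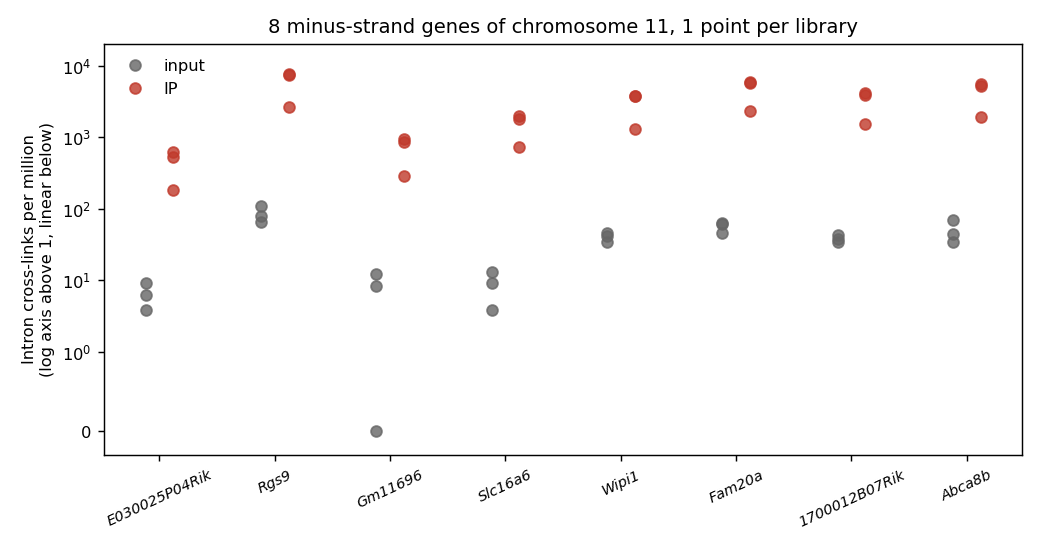
Intron CPM in each library (log axis above 1) for the 8 minus-strand genes, ordered by position. Grey points are the 3 inputs and red points the 3 IPs; in each of the 8 genes every IP lies above every input.

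The cross-links of these genes were spread along the introns. Together the 8 genes took 3.91%, 1.36% and 4.11% of all intron cross-links in IP 1 to 3 and 0.0299%, 0.0460% and 0.0325% in input 1 to 3. They held 4258, 1506 and 3054 events in the IPs on 4191, 1496 and 3010 distinct positions, or 1.02, 1.01 and 1.01 events per position. No intron window of these genes held more than 10, 5 and 8 events in IP 1, 2 and 3. Counting distinct positions, the log2 fold changes were 5.87 to 6.69.

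Per kb of gene, the 3 IPs together held 24.5 to 32.5 intron cross-links in each of the 8 genes, and the 3 inputs 3.12 to 9.65. Of their introns, 85 had at least 10 IP cross-links, and in 83 of these every IP lay above every input. The pooled log2 ratio over the 85 introns ran from 3.15 to 10.52, with a median of 6.56. The genes were picked for their rise and the introns by IP counts alone, which favours this pattern. These values therefore describe how the rise was spread and are not a test. Among all gene intron and exon sums tested, the groups did not overlap in 45.8%. Exons rose as well: the exon sums of Rgs9 had 113, 44 and 90 cross-links in the IPs and 1, 17 and 16 in the inputs (log2 fold change 7.13, edgeR adjusted p = 0.000129). The intron share within the 8 genes was 86.7%, 87.2% and 86.7% in the IPs and 84.0%, 86.5% and 84.1% in the inputs.

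No gene of the plus strand in the same stretch was called higher. Of 5 listed, Arsg, an arylsulfatase gene that lies between Slc16a6 and Wipi1 and overlaps the edge of Slc16a6, was the only 1 tested, and it fell, with 16, 6 and 7 cross-links in the IPs and 96, 656 and 769 in the inputs (log2 fold change -1.75, SE 0.41, edgeR adjusted p = 0.0189). By distinct positions its change was -0.45 with adjusted p = 0.588. Gna13 (a G protein subunit) had 6, 2 and 2 IP cross-links against 8, 96 and 148, and Prkar1a (a regulatory subunit of protein kinase A) 3, 5 and 3 against 1, 16 and 30. Both were below the filter. Beyond Abca8b, the minus-strand gene Abca8a was below the filter, with 4, 5 and 0 IP cross-links against 7, 99 and 136, and Abca9 was not called, with 4, 9 and 6 against 12, 128 and 189 (log2 fold change 0.14, SE 0.32, edgeR adjusted p = 0.826).

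**Figure D4:**
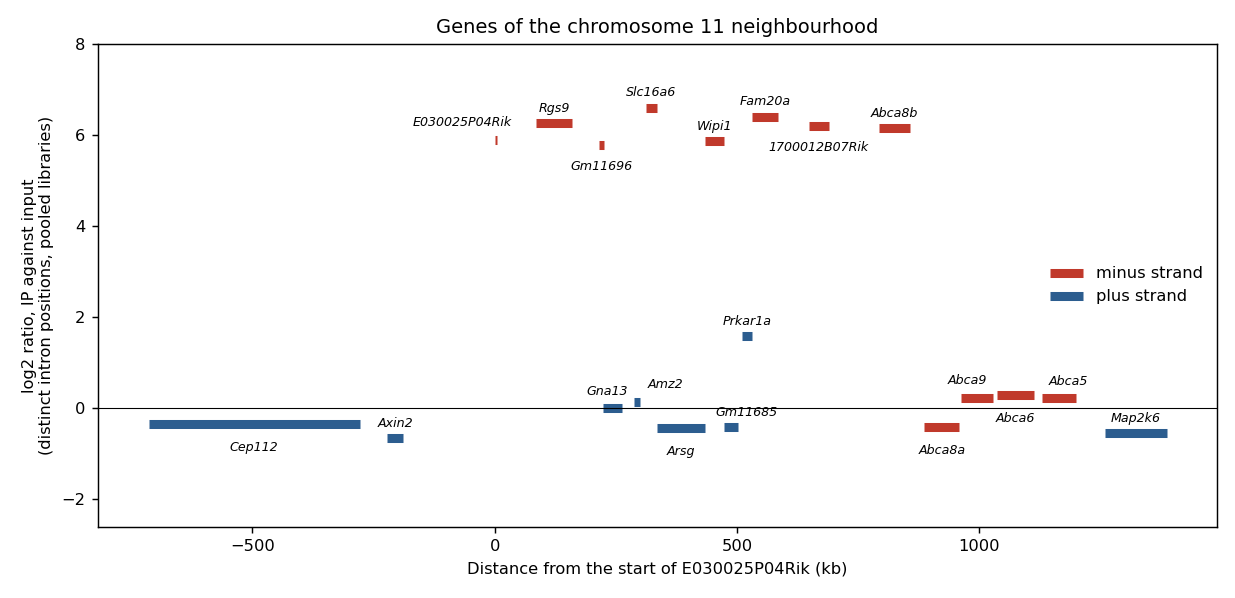
Pooled log2 ratio of IP to input for distinct intron positions (vertical axis) of genes with at least 20 positions, drawn as bars over their extent in kb from the start of E030025P04Rik. Minus-strand genes are red and plus-strand genes blue; 8 red bars lie between 5.78 and 6.60, and the other genes drawn lie between -0.66 and 1.59.

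Expression of the 8 genes in RNA-seq was mostly low and did not follow them as a set. At day 18 in wild type, Rgs9 had 2.15 CPM ± 0.418 (SD, n = 3), Fam20a 1.37 ± 0.150 and Wipi1 12.3 ± 1.75. In knockout at that age Fam20a fell (log2 fold change -1.47, SE 0.31, edgeR adjusted p = 0.0125). Slc16a6 fell too (-0.73, SE 0.16, edgeR adjusted p = 0.0131), and none of the others was called. Of all genes tested at day 18, 18.2% were called. E030025P04Rik was not tested at either age. At day 28 in wild type the highest was 1700012B07Rik, with 172.3 CPM ± 14.8 (SD, n = 3), which fell in knockout to 3.37 ± 0.638 (log2 fold change -6.25, SE 0.29, edgeR adjusted p = 9.95e-06). Fam20a fell from 22.5 ± 1.91 to 2.04 ± 0.621 CPM (log2 fold change -4.01, SE 0.27, edgeR adjusted p = 1.92e-05), and Abca8b rose from 2.09 ± 1.01 to 8.57 ± 2.86 (1.52, SE 0.38, edgeR adjusted p = 0.0104). Gm11696 fell at day 28 (-1.44, SE 0.42, edgeR adjusted p = 0.0207). Rgs9 did not pass the test at day 28 (0.05, SE 0.30, adjusted p = 0.891), nor did Slc16a6 and Wipi1. Of all genes tested at day 28, 56.3% were called. In whole testis a smaller number of cells of a type and less RNA per cell cannot be told apart. The age of the eCLIP mice is not given, so no age was matched.

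Smaller rises of neighbouring genes were seen in other places. Tested genes were put in 1000-kb bins by strand, which gave 2528 bins with a tested gene. Bins with fewer than 3 tested genes were among them and could not hold 3 rises. At least 3 genes rose in 2 bins, the minus strand of the chromosome 11 bin above (8 of 8 tested) and a minus-strand bin of chromosome 12 (3 of 3). Another 2 bins held at least 3 genes that fell. On chromosome 12 (chr12:69583761-70347869) 5 of 8 minus-strand genes could be tested and all 5 rose. Trim9, a ubiquitin ligase of neurons, had 42, 37 and 20 cross-links in the IPs and 12, 161 and 272 in the inputs (log2 fold change 2.14, SE 0.21, edgeR adjusted p = 0.000321), and Sos2, a Ras exchange factor, changed by 2.01 (SE 0.36), Nin by 1.73 (SE 0.43), Cdkl1 by 1.51 (SE 0.22) and Map4k5 by 1.34 (SE 0.19). The plus-strand model 4930512B01Rik among them fell by 1.61.

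On chromosome 18 (chr18:20684599-21672929) 4 of 4 minus-strand genes rose, though no bin there held as many as 3 rises. Trappc8, a subunit of a vesicle tethering complex, had 61, 55 and 34 cross-links in the IPs and 2, 73 and 99 in the inputs, or 421.7, 396.0 and 332.5 CPM against 7.63, 26.6 and 27.0 (log2 fold change 4.12, SE 0.28, edgeR adjusted p = 0.000129). Garem1 changed by 2.59 (SE 0.22), Klhl14 by 2.57 (SE 0.26) and B4galt6 by 2.57 (SE 0.26). In all 4, distinct positions gave a call in the same direction, with log2 fold changes from 2.34 in B4galt6 to 3.46 in Trappc8. The plus-strand gene Rnf125 between them changed by -1.17 (SE 0.53) and did not pass the test (edgeR adjusted p = 0.152). Next to B4galt6, outside the limits given, the introns of the minus-strand model Gm16090 had 4, 7 and 3 IP cross-links against 112, 597 and 595. That intron sum fell (-2.77, SE 0.55, edgeR adjusted p = 0.0105). Its exons went the other way, with 256, 216 and 154 IP cross-links against 17, 65 and 45. Beside it, the plus-strand gene Ttr was below the filter, with 7, 9 and 9 intron cross-links against 0, 9 and 16. Its pooled log2 ratio of distinct intron positions was 3.45. These 2 regions were also chosen after their values were seen, with limits set by the genes that rose.

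Outside these runs, the named rises rested on few positions. Pon1, which encodes the serum enzyme paraoxonase, had 64, 76 and 67 intron cross-links in the IPs and 1, 41 and 44 in the inputs, on 10, 12 and 9 positions against 1, 34 and 36 (log2 fold change 5.59, SE 0.32, edgeR adjusted p = 9.28e-05). A single window held 93.7% of its IP cross-links, and by distinct positions its change was 2.46 (adjusted p = 0.00398). Ska3, of the kinetochore complex that holds chromosomes to microtubules, had 21, 22 and 22 IP cross-links, all on 1 position per library, against 0, 13 and 25 in the inputs (5.05, SE 0.36). Kcnd3os, an antisense RNA of a potassium channel gene, changed by 4.31 (SE 0.38), with 88% of its IP cross-links in a single window, and Crb2, a cell polarity gene, by 4.22 (SE 0.30), with 84.1%. Predicted models were kept out of the 10 named rises, and 4 of them ranked among these, the 3 of chromosome 11 above and 4930438A08Rik.

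The named falls had almost no IP cross-links. Scrib, a cell polarity gene, had 0 in every IP and 19, 192 and 200 in the inputs, at least 7.93-fold lower when 3 counts over the 3 IPs are taken as the limit of a count of 0. That count of 0 holds for the windows chosen: in windows with a remainder of 1 or 2 on division by 3, the change of Scrib was -1.73 and -1.62 on the log2 scale. Fhl3, a LIM domain gene of muscle, had 1 IP cross-link against 441 in the inputs, a pooled ratio of 25.5 (95% exact interval for counting error 4.56 to 1010). Dnajb12, a chaperone partner of the endoplasmic reticulum, had 1 in each IP and 43, 277 and 280 in the inputs, 11.6-fold lower (3.94 to 56.3). The trypsinogen gene Try4 had 3 against 820 in total, the surfactant protein gene Sftpd 2 against 505, the mitochondrial release factor gene Mtrf1 2 against 522, the lysosomal glucosidase gene Gaa 2 against 444, and the lipoate synthase gene Lias 2 against 402. Magea2 had 5 against 1072 and Mettl13, a methyltransferase of an elongation factor, 10 against 1323. All passed the edgeR test, with adjusted p from 0.00793 (Scrib) to 0.0446 (Sftpd). Without IP 1 each of them other than Scrib lost its call.

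In each of these 10 genes the input cross-links were stacked in a single window, from 74.0% of them in Scrib to 99.6% in Try4. None of the 10 passed the low-count filter when distinct positions were counted. Among 14 genes that fell by distinct positions, Arfgap3 had 3, 2 and 1 IP positions against 14, 142 and 155 (log2 fold change -2.08, edgeR adjusted p = 0.00828), and Mbnl1, a regulator of alternative splicing, 6, 6 and 4 against 24, 166 and 210 (-1.06, adjusted p = 0.0477).

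Whether a gene's introns and exons moved apart was tested with the library held fixed, so that scaling between libraries does not enter. Of 4187 genes, the intron share was higher in IP for 141 and lower for 234 (edgeR, interaction of region and IP, adjusted p under 0.05), 8.96% of those tested (3.37% higher, 5.59% lower). Without input 2 the calls numbered 218, and without input 3 247. The counts behind this are small: the median gene had 2 exon cross-links and 30 intron cross-links in the 3 IPs together. Mipep, a mitochondrial peptidase gene, had 25, 21 and 14 intron and no exon cross-links in the IPs, while the inputs held 15, 258 and 336 intron and 10, 113 and 114 exon cross-links (adjusted p = 1.94e-05). Pon1, Uox (urate oxidase), Sparcl1 (an extracellular matrix protein) and Ppp2r2c (a phosphatase subunit) likewise had no IP cross-links in exons. For Pon1 the inputs held only 1, 3 and 7 exon cross-links, so 0 in the shallower IPs says little.

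At the other end, the named genes had no intron cross-links in any IP. Eef2, the translocase of translation elongation, had 46, 30 and 48 exon cross-links in the IPs, and its inputs held 1, 59 and 48 intron and 6, 162 and 95 exon cross-links (edgeR interaction, adjusted p = 6.84e-09). Hr, a corepressor gene, had 17, 17 and 10 in IP exons, with 1, 75 and 77 intron and 1, 24 and 47 exon cross-links in the inputs (adjusted p = 9.13e-11). Nabp1, a single-strand DNA binding protein gene, had 34, 40 and 59 in IP exons. Its inputs held 0, 5 and 4 intron against 1, 35 and 34 exon cross-links. Ermap and Slx1b completed the 5. Slx1b had only 0, 2 and 6 intron cross-links in the inputs, and it lost its call in 4 of 11 alternatives. Of the 234 genes, 5 had no intron cross-link in any IP, and 31 of the 141 had no exon cross-link there.

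The lists of germ cell stages and pathways are given by their counts, beside the median of -0.06 and the 19.8% called over all intron sums. Of 33 piRNA pathway genes 7 were tested and 1 rose, Morc1, a chromatin ATPase needed for transposon silencing, with 22, 48 and 19 cross-links in the IPs and 7, 212 and 349 in the inputs (log2 fold change 1.74, SE 0.38, edgeR adjusted p = 0.0149). By distinct positions Morc1 did not pass (0.38, adjusted p = 0.702). The median of the 7 piRNA pathway genes was -0.77. Among them Tdrd1 changed by -1.64 without a call (edgeR adjusted p = 0.0661), and by 0.93 by distinct positions (edgeR adjusted p = 0.313). Of 49 synapsis and recombination genes 5 were tested, and of 26 pachytene and late meiosis genes 4, with none called. Their medians were -0.26 and 0.48, in that order. Of 23 round spermatid genes 3 were tested and 1 rose (Acsbg2, an acyl-CoA synthetase, with 12, 7 and 13 IP cross-links against 6, 96 and 136, edgeR adjusted p = 0.0242).

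Of 30 elongating spermatid genes 8 were tested, with a median of 0.36, and 1 rose and 1 fell. Hydin, a protein of the axoneme central pair, had 85, 72 and 45 IP cross-links against 75, 763 and 1119 (0.93, SE 0.17, edgeR adjusted p = 0.00647), and its distinct positions gave 0.66 (adjusted p = 0.00973). The axonemal dynein gene Dnah1 had 1, 1 and 2 against 17, 179 and 206 (-2.43, SE 0.48). Of 21 spermatogonial genes 5 were tested, with a median of 0.06, and 1 rose. This was the receptor gene Kit, with 16, 19 and 12 IP cross-links against 9, 118 and 168 (1.62, SE 0.21, edgeR adjusted p = 0.00113). Its distinct positions gave 1.01 (edgeR adjusted p = 0.0333).

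Of 114 genes after which genic piRNA clusters are named, 20 were tested, 3 rose and 2 fell, with a median of -0.08. Bend4 changed by 2.29 (SE 0.32), Rad54l2 by 2.25 (SE 0.38) and Hmbox1 by 1.55 (SE 0.24). The exon sum of Bend4 went the other way and was called lower (log2 fold change -2.77, edgeR adjusted p = 0.0175). By distinct positions Hmbox1 did not pass (0.41, adjusted p = 0.483), and a single window held 89.1% of the IP cross-links of Bend4 and 77.0% of those of Rad54l2. Among the falls, Uhrf1bp1 had 2, 1 and 0 IP cross-links against 19, 239 and 189. Of 63 splicing factor genes 5 were tested, with a median of -0.87, and 1 fell, Mbnl1 (-1.11, SE 0.23). Of 45 R-loop processing genes 7 were tested and 1 rose, the chromatin remodeller Bptf (1.09, SE 0.27, edgeR adjusted p = 0.0240), and the list's median was 0.03. Bptf lost its call in 8 of 14 alternatives, with log2 fold changes from 0.53 to 1.26 and adjusted p up to 0.495. Of 39 translation factor genes 2 were tested and of 50 snoRNA host genes 1, with none called. Of 88 genes picked by ribosomal protein symbols 1 was tested and was not called. It was Rps6kl1, a kinase-like gene that the symbol rule let in, so no ribosomal protein gene was tested.

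Somatic markers were tested in 16 of 82 genes over 5 lists. None of the 5 Sertoli, 2 Leydig or 4 endothelial genes tested was called, while 1 of 3 peritubular genes (Pdgfrb, 0, 2 and 2 IP cross-links against 24, 185 and 214) and 1 of 2 macrophage genes (Cd163, 4, 1 and 3 against 28, 225 and 230) fell. A single window held 63.8% of the input cross-links of Pdgfrb and 76.2% of those of Cd163. Neither could be tested by distinct positions. D1Pas1 itself has no intron window in the files. Its relatives were below the filter: Ddx3x had 0, 0 and 1 intron cross-links in the IPs and 1, 9 and 17 in the inputs, Ddx3y 1, 0 and 2 against 1, 16 and 18, and the germ cell helicase gene Ddx4 3, 2 and 3 against 3, 102 and 108.

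Few intron windows recurred in all IP libraries. Of 222778 intron windows listed in any IP, 204618 were in 1 file, 13405 in 2 and 4755 in all 3, which is 2.13%. Of 1909369 listed in any input, 62212 were in all 3 inputs, or 3.26%, at a greater depth. At an equal depth of 74360 intron cross-links per library, the expected number in all 3 was 3298 for the IPs and 4335 for the inputs, calculated by rarefaction without resampling. The IP libraries thus shared fewer windows than the inputs at that depth.

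The 4755 windows lay in 3025 genes, and 2337 of these genes had a single such window. The windows were in intron 1 for 25.2%, against 22.3% of intron windows listed in any input and 22.7% of those in all 3 inputs. In introns above 10 lay 19.5%, against 19.7% and 19.3%. Host genes were long, with a median of 86.8 kb (2762 genes with a RefSeq length) against 17.9 kb over all 23894 genes with intron windows and a length; a longer gene offers more windows. The 8 chromosome 11 genes held 655 of the windows, or 13.8%, led by Rgs9 with 166 and Fam20a with 134. Of 11 genes with 10 or more, the other 3 were Gm20388 (22), Camta1 (10) and Fgfr2 (10), named after their values were seen.

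Presence in the inputs varied among these windows. Of the 4755, 2496 were listed in no input and 549 in all 3. In 1068 each IP held exactly 1 event, and in 318 each held at least 5. Every IP lay above every input for 4443 windows and below for 223; since presence in the IPs chose them, this is a description, and 93.1% of the 6566 windows of all features present in all 3 IPs showed the first pattern. They held 15.6%, 14.8% and 17.6% of the intron cross-links of IP 1 to 3, and 15.4%, 5.97% and 3.65% of those of input 1 to 3.

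Of 9 windows described among those with the highest level in their lowest IP, 3 had every IP above every input. A window of intron 2 of Cdk8, the Mediator kinase, led with 345, 212 and 200 cross-links in the IPs and 393, 2153 and 2109 in the inputs, on 42 to 50 of its positions, or 2385, 1526 and 1956 CPM against 1500, 785 and 575. A second Cdk8 window had 141, 85 and 79 against 76, 765 and 700. In these Cdk8 windows the pooled ratio of IP to input was 2.81 and 3.42, and every IP lay above every input.

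Arid4a was the exception in size. The window in intron 1 of this chromatin regulator gene (chr12, plus strand) had 164, 69 and 56 cross-links in the IPs, on 7 to 8 positions, and 2, 18 and 28 in the inputs, on 1 to 4 positions, a pooled ratio of 104.1. In intron 3 of Cmss1 a pair of windows had pooled ratios of 1.68 and 1.65, and the groups overlapped. Windows of Slc9a9, Gm15218, Angpt1 and Cyp4x1 had input 1 above every IP: that of Slc9a9 intron 7, in a sodium-proton exchanger gene, had 1092, 1102 and 1056 CPM in the IPs and 3225, 525 and 388 in the inputs.

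**Figure D5:**
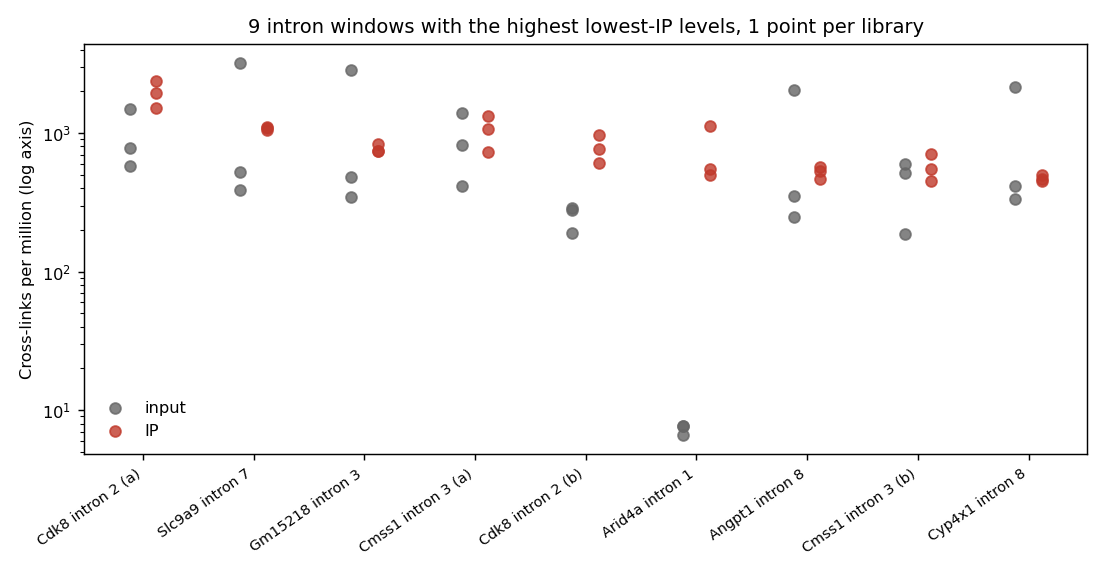
CPM (log axis) in each library for 9 of the intron windows with the highest level in their lowest IP, with (a) and (b) for a pair in the same intron. Grey points are the 3 inputs and red points the 3 IPs; in the Arid4a window the inputs lie at 6.57 to 7.64 and the IPs at 496.8 to 1134.

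Further windows with every IP above every input were taken after their values were seen. A window of Pon1 intron 8 had 59, 72 and 63 cross-links in the IPs, on 6 to 8 positions, and 0, 5 and 1 in the inputs. In Klf12 intron 3, 79, 47 and 24 IP cross-links lay on 1 position per library, with 0 in every input, at least 864-fold higher when 3 counts over the 3 inputs are taken as the limit. A window of intron 6 of 4930511M06Rik had 28, 36 and 26 against 0, 1 and 0, on 14, 19 and 10 positions in the IPs. The Shroom3 window in intron 4, in a gene that shapes epithelial cells, had 61, 88 and 38 against 13, 99 and 45. These stand beside a median of 5 cross-links over the 3 IPs for all 4755 windows.

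A test per window could use only 1678 intron windows, 0.0805% of them, and called 459 higher and 1184 lower (edgeR, adjusted p under 0.05), where 96.7% of all windows tested were called. A window of this depth passed the filter mostly through the group in which it was high: 320 of those tested had 0 in every IP and 93 had 0 in every input. The counts are therefore given without being read as a result.

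Among genes that passed the RNA-seq filter, host genes of the recurrent windows had median levels near those of all genes. Host genes passed that filter more often. At day 18, 2054 of 3018 host gene names were tested, against 13977 of 28768 names with any intron window. At day 28 these were 2237 of 3018 and 15508 of 28768. The median wild-type level of tested host genes at day 18 was 26.2 CPM, against 25.5 over all 15722 genes tested. At day 28 the medians were 15.9 and 14.1 CPM. In knockout at day 18, 79 host genes rose and 313 fell (3.85% and 15.2%), beside 3.19% and 15% of all genes tested (edgeR, adjusted p under 0.05). At day 28, 569 rose and 753 fell (25.4% and 33.7%), beside 24.6% and 31.6%. These are near the shares over all genes. The balance depended on the scaling: with library totals in place of TMM, 271 host genes rose and 266 fell at day 18, and 931 rose and 587 fell at day 28. Leaving out knockout replicate 12 or wild-type replicate 8 left 233 changed host genes at day 18, and the other single omissions left 283 to 472. The number that rose at day 18 ran from 12 without knockout replicate 12 to 147 without wild-type replicate 9. At day 28 it was 318 without wild-type replicate 2. The shares over all genes are given for the main fit only. Counts with library totals or with a library left out are therefore not read as a trait of host genes.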

How the data were processed

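The authors deposited counts of cross-link events per sliding window for each eCLIP library, with the number of distinct positions and their fraction of the window length, unscaled. Per the submitters' processing notes, cutadapt 3.4, HTSeq (no version) and mm10 were used; no source used here names the aligner or the use of strand. For RNA-seq the authors deposited estimated counts, rounded here. Only cluster names were read from the small RNA files, whose values are a signal normalized by the authors.

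Window number runs along the whole gene in genome order, so the planned test of position within an intron could not be made. Counts were tested with edgeR 4.0.16 (R 4.3.3; TMM; filter with minimum count 10 and total 15, for windows 5 and 10), with DESeq2 1.42.0 as an alternative; shares with exact permutation tests (Python). Fits were checked on simulated counts. CPM uses library totals. Of 28904 features all but 100 had a symbol, and 82.7% were placed in RefSeq GRCm38.p6 by symbol. RNA-seq of day 14 and the BisMapR samples were not analysed here. No window sequence was read, since no genome was used. Members and lists were chosen with earlier results of these data known. Genes named are the 10 largest rises and falls with separated groups, 5 per direction for intron against exon, the 10 top windows, the helicase genes and called list members; others are said to be chosen later. Predicted models are otherwise counted. Of the top windows, 1 is not reported here.

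Depth limits precision: with 102257 to 144662 cross-links per IP, genes with few intron events were not testable. Events without molecular identifiers may not be independent, so intervals cover counting error only.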

Additional observations from a re-analysis of the deposited data

How the results depend on the processing

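The rises of the 8 chromosome 11 genes kept their direction and call in each of the 15 alternatives run, with log2 fold changes from 5.43 (E030025P04Rik) to 7.67 (Slc16a6). The count of gene intron calls (774) was 83 by distinct positions, 403 with a minimum count of 20, 2171 without a filter, and 430 to 769 when a library was left out; without IP 1 it was 430, without IP 3 514 and without input 2 449. With library totals alone the median moved to -0.17 and the calls to 292 higher and 604 lower, against 359 and 415. Intron against exon (375) gave 111 by distinct positions, 163 with minimum count 20, 162 with the replicate block, and 218 (without input 2) to 339 when a library was left out, with 247 without input 3. Intron windows (1643) gave 30 by distinct positions, 182 with minimum count 20, 57540 without a filter, and 1214 to 2902 when a library was left out. Of single genes named, 620 tests under an alternative kept the call and 63 lost it, among them tests of Bptf, Cd163, Sftpd and Acsbg2, and, without IP 2, Morc1, Mbnl1, Pdgfrb and Uhrf1bp1. Alternatives in which a gene could not be tested are outside this tally. Uox and Sparcl1 had 8 alternatives each and Dnah1 9, against 15 for Rgs9. With at least 2 cross-links in every IP, 1348 windows remained of the 4755.

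The difference in intron share was 0.0407 points when windows were counted once each, and -5.66 to -2.55 when a library was left out. Introns 4 to 5 differed by -0.0104 points by distinct positions, by -0.0908 without the 0.1% highest windows, and by -0.189 to 0.181 when a library was left out. Introns above 10 differed by 0.0307 and 0.217 points under the first pair of settings and by -0.326 to 0.00904 when a library was left out, and intron 3 by -0.343 to 0.0152. Intron 1 had 1.04 to 1.51 when a library was left out, 0.870 without the 0.1% highest windows, 0.676 by distinct positions, 0.519 by windows listed, and 0.934 (p = 0.1, exact permutation) without the 8 chromosome 11 genes, a setting added after the data were seen. The causes were not tested.

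Deviations of same-numbered IP and input libraries from their group means had correlations of 0.0121, -0.0701 and -0.0257. With few IP cross-links per gene, such values cannot show whether the numbers pair the libraries, and the labels do not say. The replicate block gave 715 gene intron calls and 1624 window calls; for shares the exact sign-flip test of 3 differences, which cannot go below 0.25, gave p = 0.5 for the intron share and 0.25 for intron 1. No paired analysis was possible for the RNA-seq because knockout and wild-type columns share no number. RNA-seq changes among host genes ranged from 233 to 472 at day 18 and from 983 to 1368 at day 28 when a library was left out.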

Other observations

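Some intron windows stood high in input 1 alone. Of 114 intron windows with at least 100 cross-links in that library, 52, in 52 genes, had over 3 times the level of inputs 2 and 3. They held 7.81% of the intron cross-links of input 1, 1.87% and 1.18% of those of inputs 2 and 3, and 1.09%, 1.10% and 1.08% of those of IP 1 to 3. A window in intron 35 of Cacna1a, a calcium channel gene, had 698, 1319 and 1086 cross-links in the inputs on 16 to 17 positions, and 47, 58 and 31 in the IPs on 3 to 7 positions. A window in intron 24 of Cwc22, a splicing factor gene, had 665, 1171 and 1094 against 45, 47 and 31. The set was chosen by these values, which are given as a description.

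Genes matched to RefSeq as protein coding held 82.4%, 82.5% and 82.7% of intron cross-links in IP 1 to 3 and 82.0%, 81.9% and 81.6% in input 1 to 3. Long non-coding RNA genes held 8.81%, 8.67% and 8.66% against 8.58%, 8.97% and 9.12%, and the groups overlapped. Genes on the X chromosome held 2.57%, 2.75% and 2.43% against 2.71%, 2.60% and 2.65%.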
